A study of Mus musculus with 3 samples.

Results

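A set of 36 cell cycle genes was followed through single cells of the mouse hippocampus: 15 genes whose products act in DNA replication in S phase, and 21 genes of G2 and mitosis. They were taken by gene symbol from the 21750 features of the count matrix, and all 36 were found, each with at least 10 UMIs (unique molecular identifiers, the counted molecules). The cells came from 5 mice that carried Aldh1l1CreERT2, a tamoxifen-inducible Cre recombinase under an astrocyte promoter, and Rosa26-LSL-tdTomato, a red reporter that Cre switches on. An AAV vector that needs Cre, TIGRi-Hopx, which targets the homeodomain gene Hopx for knockdown and also encodes EGFP, had been put into the hippocampus. Tissue of all 5 mice was dissociated 3 weeks after tamoxifen, sorted for cells with both reporters and made into 1 library. The mice were pooled, so no cell can be assigned to a mouse, and every cell comes from a treated animal, so there is no library without the vector against which Hopx itself could be checked. Chromatin samples of the series (anti-Flag, IgG) were not analysed here.

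The matrix held 6672 barcodes, of which 6485 passed the filters of at least 500 genes and at most 15% mitochondrial UMIs. These cells had 41760631 UMIs, with a median of 5564 per cell and quartiles of 3599 and 8177. Classes were assigned per cell from marker genes outside the 36, and 5826 cells received one: 2545 microglia, 1536 endothelial, 611 ependymal, 598 choroid plexus, 225 border macrophage, 136 astrocyte and 89 oligodendrocyte cells, with the rest in 9 classes of at most 20 cells. The remaining 659 cells had no class. Although the sort was for both reporters, an EGFP UMI was found in 69 cells and a tdTomato UMI in 237. A single library has no replicates, so differences have no replicate check and no p-values are given. All brackets hold exact 95% intervals, which cover counting error only. Cells of a library share their source and were not used as replicates.

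A cell that divides first copies its DNA and then segregates it, and the genes for these steps are transcribed in successive waves. The S phase wave covers the replicative helicase (Mcm2 to Mcm7), its loader Cdc6 and its partner Gins2, the sliding clamp Pcna, the nucleotide-making enzymes Tyms, Rrm1 and Rrm2, the histone mRNA-binding gene Slbp, and Uhrf1 and Hells, which maintain DNA methylation. The later wave covers the kinase Cdk1 and its cyclins Ccna2, Ccnb1 and Ccnb2, the mitotic kinases Plk1, Aurka, Aurkb, Bub1 and Bub1b, the passenger protein Birc5, the kinetochore genes Cenpe and Cenpf, the spindle genes Tpx2, Nusap1, Kif11, Kif20b and Kif23, the ubiquitin-conjugating enzyme Ube2c, Cdc20, which activates the anaphase-promoting complex, topoisomerase Top2a and the chromosome surface protein Mki67. In the adult brain most cells are outside the cycle. Microglia renew by division, and neural progenitors divide in the dentate gyrus and the ventricle wall.

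The late wave is known to be controlled through a promoter element called the CHR, often with CCAAT boxes nearby, and the S phase wave through E2F sites. RefSeq promoter windows of GRCm38.p6, 250 bases before to 50 bases after each start, were given for 31 of the 36 genes (not Mcm4, Gins2, Ccna2, Aurkb and Tpx2). The windows were searched on both strands for the CHR letters TTTGAA, the letters CCAAT, and the E2F letters TTTCCCGC or TTTGGCGC. TTTGAA was found in 13 of 18 G2 and M genes (72.2%) and in 1 of 13 S phase genes (7.69%, Mcm2), against 17.9% of all 32851 windows. The E2F letters were found in 0 of 18 G2 and M genes and in 6 of 13 S phase genes (46.2%: Cdc6, Hells, Mcm3, Mcm5, Mcm6 and Mcm7), against 1.56% of all windows. CCAAT was in 15 of 18 and 10 of 13, against 37.4%. A match describes the letters and does not show that a factor binds. The 7 windows below, 150 bases before to 30 bases after the start and written 5′ to 3′ along the gene, belong to genes on which the results turn: Top2a and Cdk1, found together in a few cells that hold many mitosis genes, Kif23, Kif11 and Cenpf, found mostly outside those cells, and the helicase genes Mcm3 and Mcm6. Capitals mark TTTGAA and CCAAT or their reverse complements in the first 5, and the E2F letters in the last 2.
Top2a (chr11:99024160-99024339, minus strand): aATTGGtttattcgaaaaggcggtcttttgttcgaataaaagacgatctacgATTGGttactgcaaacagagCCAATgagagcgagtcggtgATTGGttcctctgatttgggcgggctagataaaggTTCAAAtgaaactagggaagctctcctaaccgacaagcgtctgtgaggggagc
Cdk1 (chr10:69352883-69353062, minus strand): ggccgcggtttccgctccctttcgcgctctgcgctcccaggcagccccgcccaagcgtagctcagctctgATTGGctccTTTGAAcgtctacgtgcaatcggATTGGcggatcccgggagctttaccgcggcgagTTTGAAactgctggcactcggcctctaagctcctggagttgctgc
Kif23 (chr9:61946770-61946949, minus strand): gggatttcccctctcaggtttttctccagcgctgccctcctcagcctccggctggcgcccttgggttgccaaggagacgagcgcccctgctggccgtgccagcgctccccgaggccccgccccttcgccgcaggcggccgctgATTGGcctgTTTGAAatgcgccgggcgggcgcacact
Kif11 (chr19:37376232-37376411, plus strand): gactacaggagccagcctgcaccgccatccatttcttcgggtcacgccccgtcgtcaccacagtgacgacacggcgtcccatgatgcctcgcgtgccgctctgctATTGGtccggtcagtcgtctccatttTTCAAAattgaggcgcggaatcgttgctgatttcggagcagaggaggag
Cenpf (chr1:189688057-189688236, minus strand): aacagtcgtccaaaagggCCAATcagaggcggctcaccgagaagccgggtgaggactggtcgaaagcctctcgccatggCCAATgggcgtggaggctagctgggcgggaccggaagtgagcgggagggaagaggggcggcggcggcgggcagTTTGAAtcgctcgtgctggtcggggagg
Mcm3 (chr1:20820283-20820462, minus strand): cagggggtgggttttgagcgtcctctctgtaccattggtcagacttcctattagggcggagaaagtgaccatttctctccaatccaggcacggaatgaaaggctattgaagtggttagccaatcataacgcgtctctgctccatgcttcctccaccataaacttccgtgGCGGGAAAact
Mcm6 (chr1:128359676-128359855, minus strand): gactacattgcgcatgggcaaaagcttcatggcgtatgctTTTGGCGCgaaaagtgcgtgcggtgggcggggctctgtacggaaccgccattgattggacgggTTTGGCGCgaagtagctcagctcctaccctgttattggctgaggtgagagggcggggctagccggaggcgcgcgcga
Kif11, Kif23 and Cenpf thus hold the same TTTGAA letters near the start as Top2a and Cdk1. In Kif23 and Cenpf it begins at base 3 of the transcript, in Kif11 at base -19, in Top2a at -23, and in Cdk1 there are copies at -71 and -15.

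S phase transcripts were far more common than G2 and M transcripts. Over all 6485 cells, the 15 S phase genes had 8356 UMIs, or 200.1 per 1000000 UMIs (195.8 to 204; this unit is called CPM below), and the 21 G2 and M genes 2604 UMIs, or 62.4 CPM (59.98 to 64.8). Pcna alone gave 2912 of the S phase UMIs, in 2022 cells. Mcm2 (ENSMUSG00000002870) had 138 UMIs in 128 cells. Of the G2 and M genes, Kif11 was the most counted, with 291 UMIs in 205 cells, and Kif23 was seen in the most cells, 220. Mki67 (ENSMUSG00000031004), the usual proliferation marker, had 140 UMIs in 59 cells, Top2a (ENSMUSG00000020914) 143 in 54 cells and Cdk1 (ENSMUSG00000019942) 265 in 195 cells. The kinase gene Bub1 was the rarest, with 12 UMIs in 9 cells. Levels of different genes are molecules counted by a 3′ assay and were not divided by gene length. A G2 and M member was absent from 5197 cells, and 1069 cells held a single one.

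The G2 and M transcripts were concentrated in very few cells. Cells were ranked by 32 other mitosis genes that are not among the 36, such as Hmmr, Prc1 and Kif4, so that the ranking did not use the members. Between 17 and 26 of these genes were detected in 12 cells, and at most 9 in any other cell. These 12 cells, called mitosis-rich below, were 0.185% of cells (0.0956 to 0.323) and held 0.434% of all UMIs. They held 816 of the 2604 G2 and M UMIs, 31.3%, but 297 of the 8356 S phase UMIs, 3.55%. Each had 8 to 20 of the 21 G2 and M members, with 23 to 111 UMIs, whereas no other cell had more than 19 UMIs. The cell with 19 was a microglia cell with 9 G2 and M members and 8 other mitosis genes, while the 3 cells with 9 other mitosis genes had 2, 4 and 8 G2 and M UMIs. The threshold of 10 other mitosis genes was chosen after the distribution was seen, and lies in its gap between 9 and 17. The 12 cells were deeper than the rest, with a median of 14472 UMIs against 5553, and the part of depth in their counts was not tested.

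**Figure D1:**
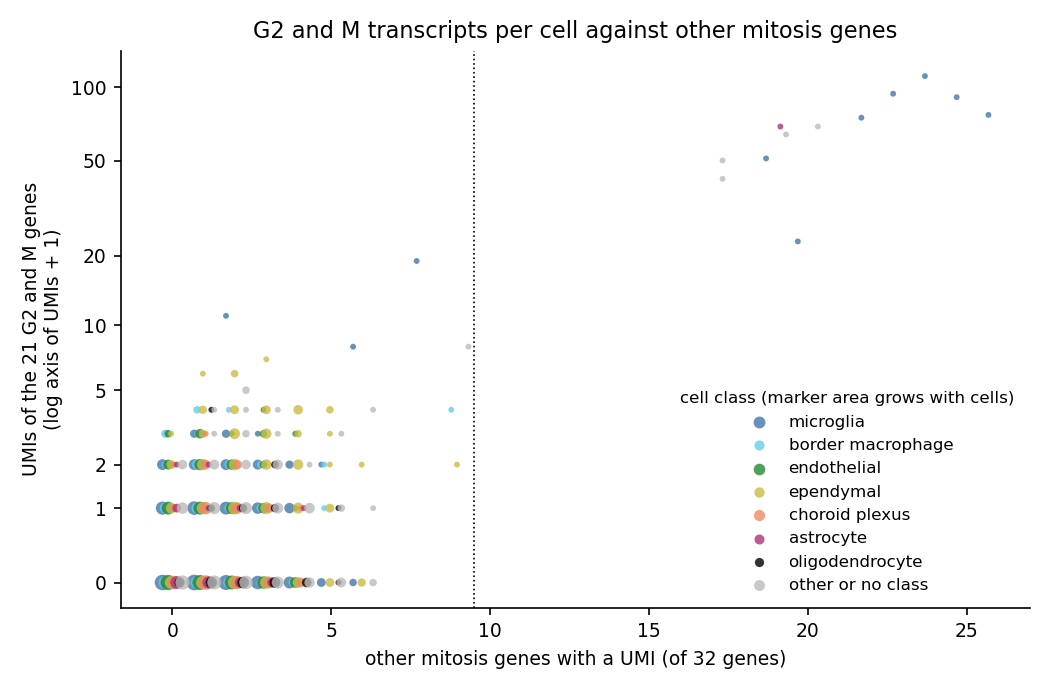
Each point is a group of cells of one class with the same 2 values: the number of other mitosis genes with a UMI (x axis) and the summed UMIs of the 21 G2 and M genes (y axis, log scale of UMIs + 1), with larger points for more cells and classes shifted slightly sideways. The 12 cells right of the dotted line have 17 to 26 other mitosis genes and 23 to 111 member UMIs, and all cells left of it have at most 9 and at most 19.

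By their markers, 7 of the 12 cells were microglia, with 8 or 9 of the 9 microglia markers each. They were 0.275% of the microglia (0.111 to 0.566). The others were 1 astrocyte, 1 neuroblast or intermediate progenitor, 1 T or NK cell, 1 monocyte or recruited macrophage, and 1 cell with no class. The cell with no class held all 8 endothelial and 88.9% of the microglia markers and was the only 1 of the 12 that the doublet caller Scrublet marked. The monocyte-type cell rested on 3 of 8 markers, Plac8 with 56 UMIs, Ccr2 with 4 and Ly6c2 with 1. No mitosis-rich cell was found among 1536 endothelial, 611 ependymal, 598 choroid plexus, 225 border macrophage or 89 oligodendrocyte cells, for which a limit of 3 counts allows shares of up to 0.195%, 0.491%, 0.502%, 1.33% and 3.37%.

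Mki67, Top2a, Cdk1 and Birc5 each had a UMI in all 12 mitosis-rich cells. Mki67 had 1 to 12 UMIs in them, with a median of 5.5, and 37 of the other 47 cells with an Mki67 UMI had just 1. The 12 cells thus held 76 of its 140 UMIs, 54.3% (45.7 to 62.7). Top2a had 1 to 20 UMIs, with a median of 7, against 1 UMI in 39 of the 42 other cells that held it, and 68.5% of its UMIs (60.2 to 76.0) lay in the 12. The shares were highest for Bub1 (83.3%), Birc5 (81.8%), Ube2c (80%) and Ccna2 (76.7%), and 9 of the 21 G2 and M genes had at least 50% of their UMIs there. A different picture held for 5 genes with under 20%: Kif23 (8.19%), Kif11 (15.5%), Tpx2 (17.7%), Aurka (17.7%) and Cenpf (19.4%). Cdk1 lay between, at 26.0% (20.9 to 31.8). Of the S phase genes, Rrm2, the regulated subunit of ribonucleotide reductase, stood apart with 18 of 42 UMIs in the 12 cells, 42.9% (27.7 to 59.0), and Uhrf1 followed with 16.5%. The other 13 had 1.504% to 8.33%, among them Pcna with 1.58% and Mcm2 with 5.80%.

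**Figure D2:**
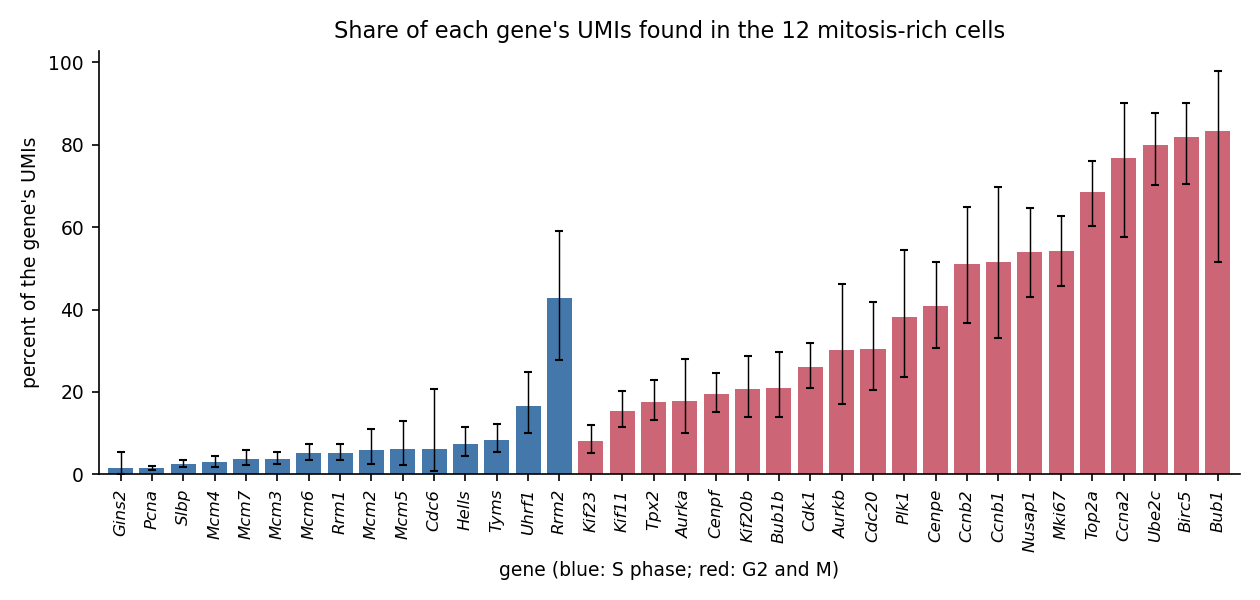
Bars give the percent of each gene's UMIs that lie in the 12 mitosis-rich cells, with exact 95% intervals, for S phase genes (blue) and G2 and M genes (red). The shares run from 1.504% (Gins2) to 42.9% (Rrm2) for S phase genes and from 8.19% (Kif23) to 83.3% (Bub1) for G2 and M genes.

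The 7 mitosis-rich microglia were compared with the 2538 other microglia, a comparison within 1 class. All 20 G2 and M genes that reached 10 UMIs in the 2 groups combined were at least 2-fold higher, as were all 14 S phase genes so tested, against 16.5% of the 12304 features tested by the same rule. Bub1, which had 9 microglia UMIs, and Cdc6, which had 7, fell short of 10 UMIs. Ccna2, Ccnb1, Birc5, Ube2c, Nusap1, Plk1 and Rrm2 had 1 to 7 UMIs in the other microglia and reached 10 only through the 7 cells. Their calls as higher were therefore fixed by the filter. The median log2 ratio was 7.80 for the G2 and M genes and 3.17 for the S phase genes, against 0.50 for all features tested. With genes at 0 in a group set to a floor of 3 counts, these medians were 7.81, 2.91 and 0.67. Ube2c had 38 UMIs in the 7 cells and 6 in the others, a ratio of 1065 (446 to 3081). Birc5 was 768 times higher (333 to 2063), Mki67 445 times (262 to 787), Top2a 392 times (246 to 641) and Cdk1 62.1 times (40.6 to 93.0). The S phase genes spread more widely, from Rrm2 at 448 times (108 to 2623) through Mcm2 at 7.31 times (0.859 to 27.9) and Pcna at 3.02 times (1.95 to 4.48) to Gins2, with 1 UMI, at 2.18 times (0.0546 to 12.5). Of 22 other replication genes that are not members, 19 were higher and 1 lower, against 16.5% and 34% of all features tested. Of 14 genes of G1 cyclins, kinases and E2F factors, 7 were higher and 0 lower, led by Ccne2, with 6 UMIs against 8, at 126 times (36.1 to 414). Ccne2 too reached 10 UMIs only through the 7 cells, so its call was fixed by the filter. How many other genes of these lists did so was not counted. The inhibitors Cdkn2c (17.1 times, 8.30 to 31.9) and Cdkn2d (13.7 times, 8.33 to 21.4) were higher as well, among 4 of 10 inhibitors higher and 2 lower. Depth differed between these groups as given above.

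Within the 12 cells, S phase UMIs differed between cells with many and few other replication genes, while summed G2 and M UMIs overlapped. Between 11 and 20 of 25 other replication genes were detected in 7 cells, and between 2 and 6 in 5 cells. The 7 cells had 17 to 78 UMIs of the S phase members, with a median of 33, and the 5 cells 1 to 7, with a median of 4, so the ranges did not overlap. Their G2 and M UMIs overlapped, at 23 to 111 and 51 to 94, with a median of 69 in both. All 11 S phase members tested were at least 2-fold higher in the 7 cells, against 22.9% of the 3871 features tested. None of these 11 had more than 4 UMIs in the 5 cells, so each reached 10 UMIs only through the 7 cells. The cells were chosen by other mitosis genes and split by other replication genes. The S phase count and ranges and the overlap of G2 and M UMIs thus describe that choice and are no test of it. Pcna, with 43 UMIs in the 7 cells and 3 in the 5, was 9.60 times higher (3.07 to 48.4), and Mcm6 had 27 UMIs in the 7 cells and 0 in the 5. Of the 21 G2 and M members, 1 was at least 2-fold higher (Bub1b, 2.01, 0.764 to 6.18) and 3 at least 2-fold lower, against 12% of features lower. The lower ones were Ube2c (0.258, 0.146 to 0.439) and Cdc20 (0.276, 0.0967 to 0.700), both parts of the machinery that destroys mitotic proteins, and the kinase Aurka (0.372, 0.0980 to 1.24). Cdk1 was at 0.515 (0.309 to 0.851) and Top2a, below the 2-fold rule, at 1.96 (1.23 to 3.22). The split was made after the data were seen, and both groups mix classes: 4 of the 7 cells and 3 of the 5 were microglia.

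**Figure D3:**
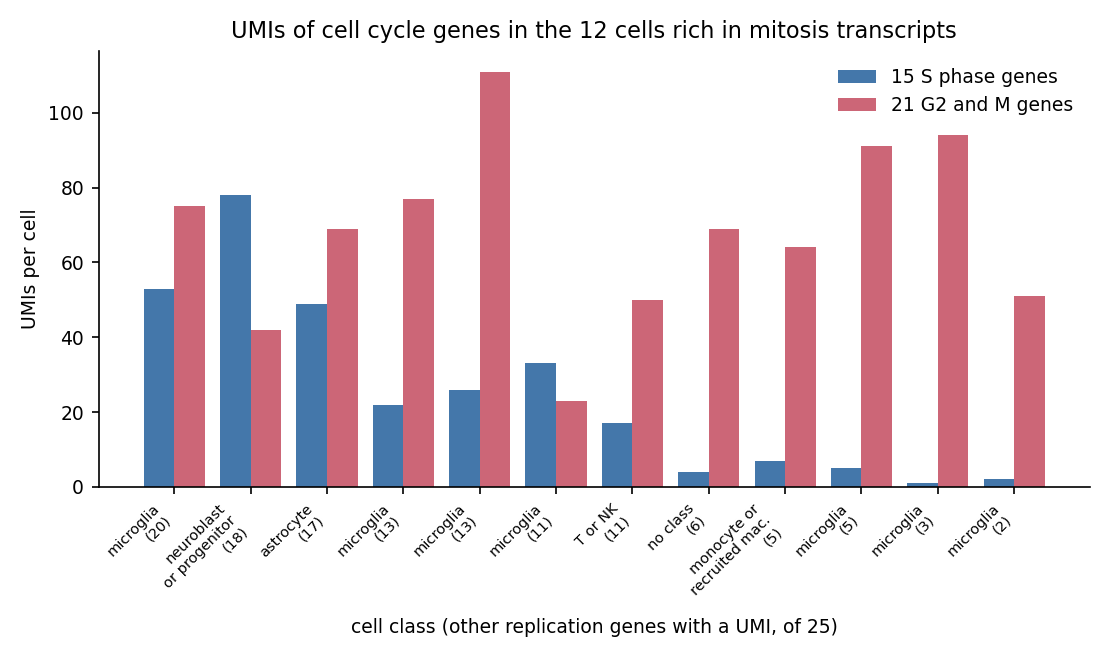
Paired bars give the UMIs of the S phase genes (blue) and the G2 and M genes (red) in each of the 12 mitosis-rich cells, ordered by the number of other replication genes detected, which stands in brackets after the class. The 7 cells on the left have 17 to 78 S phase UMIs and the 5 on the right 1 to 7, while red bars of 23 to 111 are found on both sides.

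The 2 mitosis-rich cells of the neural lineage were both in the group with many other replication genes. The astrocyte cell had 16794 UMIs, with 69 of G2 and M members, 49 of S phase members, 10 of Mki67, 10 of Top2a and 7 of Cdk1. It held 8 of 10 astrocyte markers, with 55 UMIs of the glutamate transporter Slc1a2 and 18 of Slc1a3, and also 3 UMIs of Igfbpl1 and 2 of Sox11, markers of neuroblasts or progenitors. The neuroblast or intermediate progenitor cell had 13989 UMIs, with 78 of S phase members, the most of the 12, and 42 of G2 and M members. It held 14 UMIs of Igfbpl1, 9 of Sox11 and 2 of Dcx, and 3 of Gfap and 5 of Slc1a3. Its class rested on 4 of 8 markers, and Eomes, Neurod1, Cd24a and Dlx2 had 0 UMIs. Neither cell had a UMI of EGFP or tdTomato. EGFP was found in 0 of the 12 mitosis-rich cells, which allows a share of up to 25%, and tdTomato in 1, a microglia cell with 1 UMI. Hopx had 1 UMI in the astrocyte cell and 3 in the T or NK cell.

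Many replication genes were also detected in cells outside the 12. There were 5 such cells with at least 9 of the 25 other replication genes. A microglia cell with 26 S phase UMIs and a border macrophage with 22 had 3 and 4 G2 and M UMIs. A second microglia cell and a second border macrophage had 13 and 10 S phase UMIs and 0 and 2 G2 and M UMIs. The last, an ependymal cell of 18372 UMIs, had 2 of each phase. Of these 5, the first border macrophage and the ependymal cell held 9 other mitosis genes each, with 10 and 17 UMIs, and the others 2 or 3. This threshold was also chosen after the distribution was seen.

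The 7 main classes differed in the balance of the phases. Summed S phase levels lay close together in microglia (218 CPM, 211 to 225), endothelial (208, 197 to 219), ependymal (218, 204 to 233), astrocyte (234, 196 to 278) and oligodendrocyte cells (213, 179 to 252), whose intervals overlap. Of these 7 classes, border macrophages were higher, at 311 CPM (278 to 347), and choroid plexus cells lower, at 102 (94.4 to 110). Summed G2 and M levels ran from 15.003 CPM (12.2 to 18.2) in choroid plexus to 146 (116 to 181) in astrocyte cells. There were 0.589 G2 and M UMIs per S phase UMI in ependymal cells (0.528 to 0.657) and 0.623 in astrocytes (0.466 to 0.829), against 0.312 (0.298 to 0.326) over all cells. The astrocyte value rested on 1 cell: without the mitosis-rich cell the other 135 astrocytes had 22.3 CPM (11.5 to 38.9) and a ratio of 0.148 (0.0735 to 0.273), and their S phase sum was 150.5 CPM (119 to 187). Microglia were at 57.7 CPM (54.1 to 61.4) with their 7 mitosis-rich cells and at 27.7 (25.3 to 30.3) without them. Ependymal cells, with 0 mitosis-rich cells, were at 128 CPM (118 to 139.98) in both, followed by border macrophages at 107 (87.7 to 129), whose intervals overlap.

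**Figure D4:**
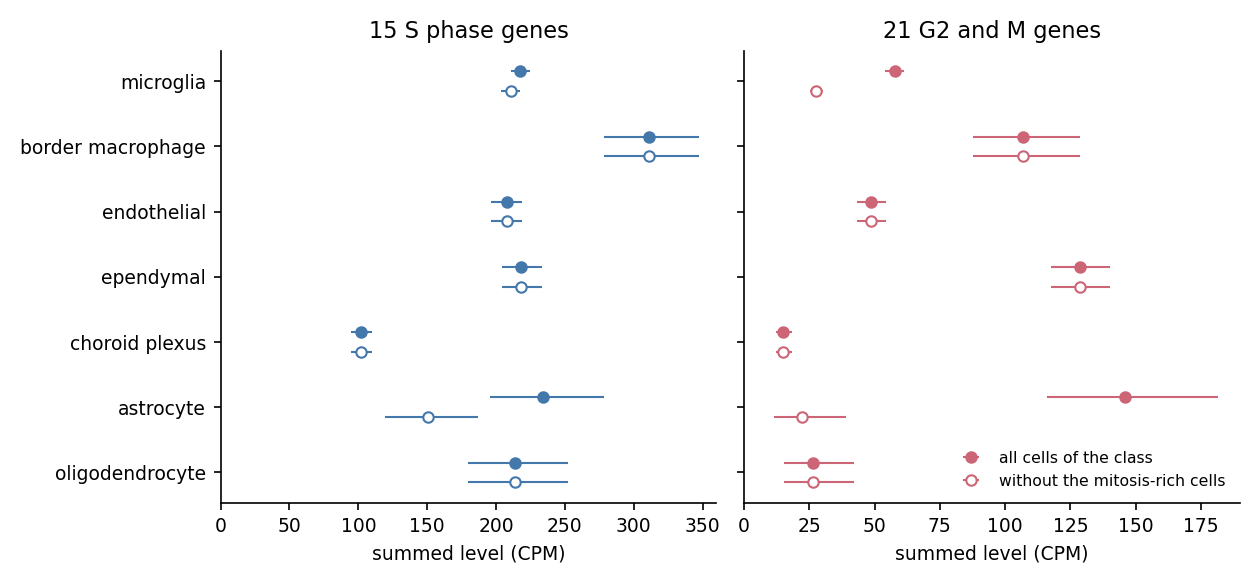
Points give the summed CPM of the S phase genes (left) and the G2 and M genes (right) in each class, with exact 95% Poisson intervals, for all cells (filled) and without the mitosis-rich cells (open). The filled and open points separate for the G2 and M genes of microglia (57.7 and 27.7 CPM) and astrocytes (146 and 22.3 CPM), and for the S phase genes of astrocytes (234 and 150.5 CPM). In the 5 classes with no mitosis-rich cell they coincide.

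The genes behind these sums differed by class. The values that follow leave out the 12 mitosis-rich cells and compare each class with the other classed cells. Of the 36 members, 34 then reached the 10 UMIs over all classes that the rule asks for, and Ccna2 and Bub1 did not. Ratios with all cells are added where they differ by more than 1.5 times. Whether the counting took in intronic reads is not known here, and its part in the levels of Kif23, Kif11, Tpx2 and the other members was not tested.

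In ependymal cells, the ciliated lining of the ventricles, 3 spindle and kinetochore genes carried the G2 and M signal. The mitotic kinesin Kif11 (ENSMUSG00000012443) had 188 UMIs in 145 of 611 cells, or 46.1 CPM (39.7 to 53.2), against 1.03 in the other classes, 44.7 times higher (30.9 to 66.5), or 20.4 times (15.5 to 27.0) with all cells. The spindle assembly factor Tpx2 had 155 UMIs in 128 cells, 38.0 CPM, against 0.818, 46.4 times higher (30.7 to 72.7), or 18.3 times (13.7 to 24.6) with all cells. The kinetochore gene Cenpf had 100 UMIs in 83 cells, 24.5 CPM, against 3.30, 7.42 times higher (5.60 to 9.83). Together they made up 443 of the 524 ependymal G2 and M UMIs, 84.5%. The genes that mark division in the 12 cells were nearly absent here: Mki67, Top2a and Cdk1 had 1 UMI each in the 611 cells, and Birc5, Ccnb1 and Ccnb2 had 0. Cdk1 was at 0.0450 times the other classes (0.00113 to 0.254). Smaller levels of Plk1 (2.94 CPM, 8.83 times, 3.57 to 22.1), Cenpe (4.17 CPM, 4.58 times, 2.37 to 8.58) and Cdc20 (3.92 CPM, 3.499 times, 1.82 to 6.45) were also above the other classes, by 4.07, 2.16 and 2.17 times with all cells.

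The 3 genes were spread thinly over the ependymal cells. All 3 were found in 12 cells, 2 in 53, 1 in 214 and none in 332, and no cell had more than 4 UMIs of any of them. A Kif11 UMI was found in 23.7% of ependymal cells (20.4 to 27.3) and in 0 of 89 oligodendrocytes, which allows 3.37%. Median depth was 5940 UMIs in the former and 6438 in the latter. With each cell thinned at random to 2000 UMIs, the share was 9.30% of 570 ependymal cells and 0 of 82 oligodendrocytes. Thinned cells with Kif11 held another G2 and M member in 13.2% of 53 cells (5.48 to 25.3), and those without it in 14.9% of 517 (11.9 to 18.3). For Tpx2 the shares were 21.95% (10.6 to 37.6) and 16.8% (13.7 to 20.3), and for Cenpf 23.3% (9.93 to 42.3) and 18.5% (15.3 to 22.1). At full depth the Kif11 shares were 44.8% and 35.0%, but the cells with Kif11 were then deeper, at a median of 7048 UMIs against 5621. For Tpx2 the full-depth shares were 50% and 37.3%, at medians of 7405.5 and 5604 UMIs. For Cenpf they were 53.0% and 42.6%, at medians of 7454 and 5746.5 UMIs. At equal depth the intervals overlapped. With 53, 41 and 30 cells holding the genes, they were too wide to show or exclude an excess of other members. In RefSeq, Kif11 overlaps 2 predicted genes, Gm46649 and Gm8663, and Tpx2 a microRNA gene, while Cenpf overlaps none. Ependymal-gated cells also held a median of 4 of the 10 astrocyte markers, and the part of that in these values was not tested.

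Among S phase members, a part of the helicase was high in ependymal cells too. Mcm4 had 240 UMIs, 58.8 CPM (51.6 to 66.8), 5.22 times the other classes (4.42 to 6.16), and Mcm7 113 UMIs, 27.7 CPM, 3.34 times (2.66 to 4.17). Mcm6 had 85 UMIs, 20.8 CPM, 1.97 times (1.54 to 2.50). Mcm2, Mcm3 and Mcm5, subunits of the same ring, were at 1.72, 6.62 and 1.72 CPM. Their ratios were 0.520 (0.204 to 1.11), 0.353 (0.231 to 0.519) and 0.776 (0.301 to 1.68). Mcm2 and Mcm5 had 7 UMIs each, and their intervals include 1. Mcm7 overlaps Ap4m1 and 3 microRNA genes in RefSeq, so its reads are less certain than those of Mcm4. Uhrf1 had 35 UMIs, 5.55 times (3.505 to 8.71), and Rrm2 10 UMIs, 8.09 times (3.02 to 21.7), or 2.90 times (1.26 to 6.16) with all cells. In all, 10 of 34 members were at least 2-fold higher and 13 at least 2-fold lower, against 28.3% and 22.6% of all 15185 features tested, so the share of members higher was near that of all features. The ratio intervals of 9 of the 13 lower reach 1 or more. With all cells, 10 of 36 were higher and 17 lower, against 28.2% and 22.8%.

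In endothelial cells, which line blood vessels, Kif23 was the best-counted G2 and M member. Kif23 (ENSMUSG00000032254), the kinesin of the central spindle and of cytokinesis, had 194 UMIs in 154 of 1536 cells, 30.3 CPM (26.2 to 34.9), against 1.43 in the other classes, 21.2 times higher (15.2 to 30.1). It had 1 UMI in 120 of those 154 cells and at most 4 in any. Kif11 and Tpx2, high in ependymal cells, were at 0.0881 times (0.0238 to 0.229) and 0.136 times (0.0435 to 0.322) here, and Mki67, Top2a and Cdk1 had 4 UMIs each. A Kif23 UMI was found in 10.03% of endothelial cells (8.57 to 11.6), whose median depth was 3552.5 UMIs, and in 0 of 89 oligodendrocytes. After thinning the shares were 5.98% of 1337 cells and 0 of 82. Thinned endothelial cells with Kif23 held another G2 and M member in 3.75% of 80 cells (0.780 to 10.6), and those without it in 4.14% of 1257 (3.10 to 5.39). At full depth the shares were 10.4% and 6.51%, at medians of 4699.5 and 3472 UMIs. The spindle gene Nusap1, with 24 UMIs in 23 cells, was 11.5 times higher (5.31 to 27.0), or 2.11 times (1.25 to 3.46) with all cells, and it overlaps Oip5 in RefSeq. Ube2c, with 7 UMIs, was 3.73 times higher (1.18 to 11.3), but at 0.476 times with all cells. The chromatin remodeller Hells was 2.54 times higher (1.85 to 3.45). Of 34 members, 4 were at least 2-fold higher and 7 lower, against 15.5% and 33.3% of all features. The ratio intervals of 3 of the 7 lower reach 1 or more. With all cells, 3 of 36 were higher and 17 lower, against 15.5% and 33.6%.

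Border macrophages, which sit at the meninges and vessels, had the highest S phase sum of the 7 main classes, and Pcna made up 156 of its 321 UMIs. Pcna was at 151 CPM (129 to 177), 2.29 times the other classes (1.94 to 2.70), followed by Slbp at 49.5, Mcm3 at 18.4, Rrm1 at 16.5 and Mcm6 at 13.6 CPM. The lowest were Rrm2, with 0 UMIs, Mcm5, with 3, and Uhrf1 and Gins2, with 4 each. Mcm2 had 9 UMIs, 2.94 times (1.31 to 5.80), and the helicase loader Cdc6 6 UMIs, 11.04 times (3.61 to 28.8). Of the later genes, Cenpf had 51 UMIs in 39 of 225 cells, 49.5 CPM (36.8 to 65.0), 11.3 times higher (8.06 to 15.6), Cdk1 17 UMIs in 15 cells, 3.62 times (2.06 to 5.98), and Mki67 7 UMIs in 5 cells, 9.41 times (3.45 to 22.3). With all cells the Mki67 ratio was 2.43 (0.954 to 5.20), an interval that includes 1. Top2a had 2 UMIs, in 1 cell. After thinning, 5% of the 20 border macrophages with Cenpf (0.127 to 24.9) and 9.33% of the 193 without it (5.62 to 14.3) held another G2 and M member, against 25.6% and 17.7% at full depth. Cenpf was found in 9.39% of 213 thinned cells and in 0 of 82 oligodendrocytes. In all, 10 of 34 members were at least 2-fold higher and 7 lower, against 9.4% and 36.2% of all features, and with all cells 8 of 36 were higher and 10 lower, against 9.32% and 36.4%. Of the 7 lower, 5 had 0 UMIs and the ratio intervals of all 7 reach 1 or more, so a lower level was not detectable. Of the 10 higher, Birc5 had 1 UMI, Ccnb2 3, and Aurkb and Cdc20 4 each. These cells held a median of 3 of the 9 microglia markers, and the part of that in these values was not tested.

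Microglia outside the 7 mitosis-rich cells differed from the other classes in a few genes of both phases. Mcm3 had 514 UMIs in 438 cells, 29.8 CPM (27.3 to 32.5), against 6.65, 4.48 times higher (3.69 to 5.47), while Mcm4 (0.414, 0.344 to 0.497) and Mcm7 (0.487, 0.388 to 0.607) were lower. The helicase genes high in microglia and in ependymal cells were thus different ones. Slbp was at 46.3 CPM, 1.996 times (1.78 to 2.24), and Gins2 at 2.06 times (1.40 to 3.07), but Gins2 overlaps Gse1 in RefSeq. Kif23, Kif11 and Cenpf were at 0.117, 0.133 and 0.248 times the other classes (0.210, 0.25 and 0.489 times with all cells). Of the later genes, Aurkb (3.02, 1.29 to 7.89), Bub1b (2.82, 1.65 to 5.01), Top2a (2.59, 1.27 to 5.61), Ccnb2 (2.30, 0.869 to 6.74) and Aurka (2.06, 1.14 to 3.82) were higher, with 14 to 49 UMIs each. Mki67 had 20 UMIs in 15 of the 2538 cells and Top2a 27 in 25. Of 34 members, 7 were at least 2-fold higher and 13 lower, against 13.7% and 41.6% of all features. With the 7 mitosis-rich cells included, 11 of 36 were higher and 10 lower, against 13.7% and 41.5%.

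Choroid plexus cells, which secrete cerebrospinal fluid, had the lowest sums of the 7 main classes, yet Cdk1 was seen in 58 of 598 cells. Its 66 UMIs, 9.80 CPM (7.58 to 12.5), were 2.59 times the other classes (1.88 to 3.53), while Mki67 had 0 UMIs and Top2a 1. Of the 58 cells, 2 held another G2 and M member, as did 29 of the 540 others. A Cdk1 UMI was found in 9.70% of these cells and in 0 of 89 oligodendrocytes, with median depths of 10849 and 6438 UMIs. After thinning the shares were 2.21% of 588 and 0 of 82. Mcm3 was nearly missing, with 4 UMIs, 0.594 CPM, 0.0281 times the other classes (0.00763 to 0.0723). Of 34 members, 2 were at least 2-fold higher (Cdk1 and Ccnb1, the latter with 7 UMIs) and 23 lower, against 12% and 54.8% of all features. With all cells, 0 of 36 were at least 2-fold higher and 27 lower, against 11.9% and 54.9%, with Cdk1 at 1.74 times (1.29 to 2.32) and Ccnb1 at 1.51 times (0.542 to 3.69).

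Among astrocytes, the class the vector was aimed at, the G2 and M values came from 1 cell. With it, the highest members were Mki67 and Top2a at 18.0 CPM each (8.64 to 33.1), Kif11 at 14.4, Cdk1 at 12.6, and Cenpf and Kif20b at 10.8, and the lowest was Kif23, with 0 UMIs. Then 18 of 36 members were at least 2-fold higher, against 23.6% of all features. Without it, Mki67, Top2a and Cdk1 had 0 UMIs in 135 cells, which allows 5.57 CPM for each, and 5 of 34 members were at least 2-fold higher and 19 lower, against 23.1% and 32.4%. Of the 19 lower, 15 had 0 UMIs among the 538324 UMIs of these cells, and the ratio intervals of 16 reach 1 or more, so for these a lower level was not detectable at this depth. Of the 5 higher, Ccnb2, Birc5 and Plk1 had 1 UMI each and Kif20b 4. Mcm7 (26.0 CPM, 2.55 times, 1.38 to 4.33) and Mcm4 (31.6 CPM, 1.94 times, 1.12 to 3.13) were the best-counted S phase members above the other classes, and Pcna was at 0.350 times (0.186 to 0.599). Oligodendrocytes had 0 UMIs of Mki67, Top2a, Cdk1, Kif11, Kif23 and Mcm2, and Pcna at 102 CPM (79.0 to 129.9). They had 5 of 34 members higher and 18 lower, against 16% and 40.3% of all features, and the ratio intervals of 16 of the 18 reach 1 or more. With the mitosis-rich cells left in the other classes, 4 of 36 were higher and 21 lower, against 15.9% and 40.4%.

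**Figure D5:**
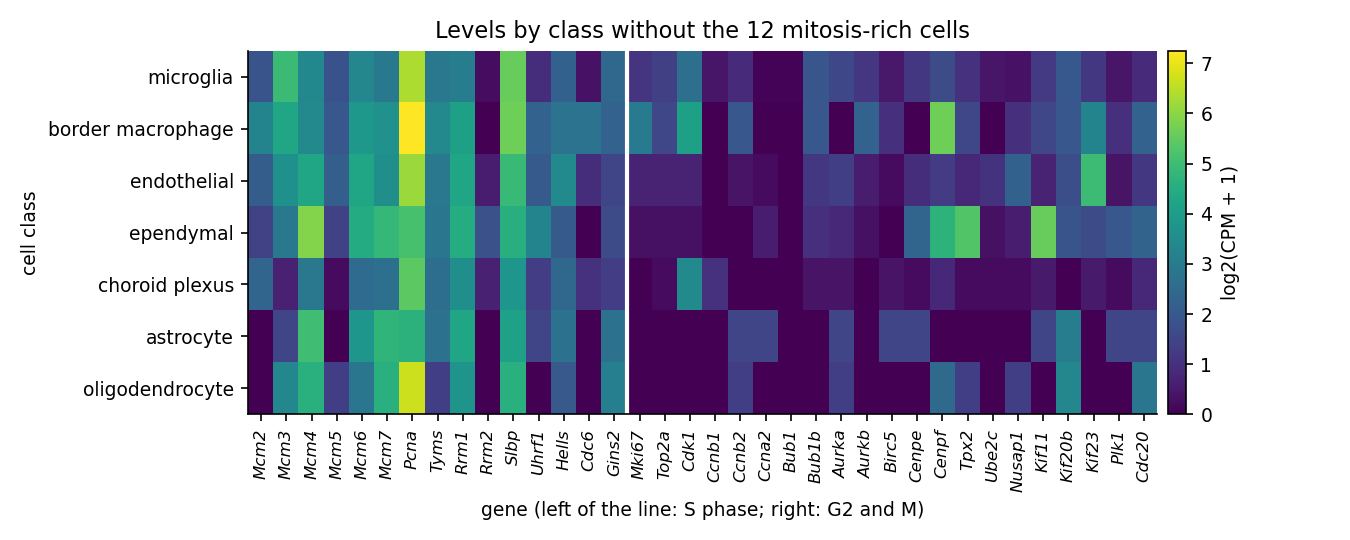
The colour gives log2(CPM + 1) of each gene (columns, S phase left of the white line, G2 and M right of it) in each class (rows), without the 12 mitosis-rich cells. Pcna and Slbp are bright in most classes, and right of the line Kif11, Tpx2 and Cenpf stand out in ependymal cells, Kif23 in endothelial cells, Cenpf and Cdk1 in border macrophages and Cdk1 in choroid plexus cells.

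Co-detection per cell was then counted. At full depth, 13.97% of all cells held members of both phases, 47.8% S phase members only, 5.89% G2 and M members only and 32.3% neither. After thinning to 2000 UMIs, which 5932 cells reach, 3.15% held both (2.72 to 3.63), and 3.02% without the mitosis-rich cells. In thinned cells with an S phase member, a G2 and M member was present in 9.59% (8.32 to 10.99), and in cells without one in 8.46% (7.61 to 9.37). The same shares were 6.33% and 4.88% in microglia, 20.6% and 24.0% in ependymal cells, 10.04% and 9.78% in endothelial cells and 18.5% and 17.4% in border macrophages. In choroid plexus cells they were 0 of 118 (exact interval up to 3.08%) and 3.83% (2.29 to 5.99). The intervals of each pair overlap, so no association between the phases was detected at equal depth. Overlap does not exclude one, since few thinned cells held both phases, such as 52 microglia and 15 border macrophages. At full depth the shares over all cells were 22.6% (21.3 to 23.9) and 15.4% (14.0 to 16.9). With Mki67 as the reference, at full depth, Rrm2 was found in 10.2% of the 59 cells with an Mki67 UMI and in 0.373% of cells without, Top2a in 23.7% and 0.622% and Pcna in 50.8% and 31.0%. Of the 14 cells with both Mki67 and Top2a, 12 were the mitosis-rich ones, and all 6 cells with both Mki67 and Rrm2 were among them. The 47 other cells with Mki67 had a median of 8641 UMIs and 1 G2 and M member.

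The genes most like Mki67 outside the set were named by the share of their UMIs that lay in the 59 cells with Mki67, which hold 1.59% of all UMIs. Among 13603 genes with at least 50 UMIs, the highest were Pclaf (84.1%), which binds Pcna, the kinetochore genes Knl1 (72.7%) and Spc24 (55.8%), the linker histone H1f5 (54.1%) and Prc1 (51.9%), a partner of spindle kinesins. Of the 88 Pclaf UMIs, 73 lay in the mitosis-rich cells.

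The members were also compared by reporter, since the vector encodes EGFP. All cells were sorted for both reporters, so a cell without an EGFP UMI may still carry the vector. Ependymal cells held 47 of the 69 cells with an EGFP UMI. In those 47 cells S phase members were at 206 CPM (163 to 258) against 219 (205 to 235) in the 564 without EGFP, a ratio of 0.941 (0.736 to 1.19). The G2 and M members were at 103 CPM (73.4 to 141) against 131 (119.7 to 143), a ratio of 0.787 (0.553 to 1.09). Both intervals include 1, and that of the G2 and M members reaches down to 0.553 times. Kif11 (0.550, 0.259 to 1.04) and Tpx2 (1.13, 0.627 to 1.90) also had intervals that include 1. Among astrocytes, the 27 cells with tdTomato had 1 G2 and M UMI and 21 S phase UMIs, at a median of 5816 UMIs per cell, against 80 and 109 in the 109 others, of which 69 and 49 were in the mitosis-rich cell. Only 2 astrocytes had EGFP, and these were not compared.

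Other cell cycle genes from fixed lists gave a similar division into single genes by class. In border macrophages, 4 of 24 measured other replication genes were at least 2-fold higher and 7 lower, led by Pola1 (2.43, 1.75 to 3.29), and 2 of 30 other mitosis genes were higher and 14 lower, against 9.32% and 36.4% of all features. Without the mitosis-rich cells these counts were 5 higher and 4 lower of 23, and 5 higher and 7 lower of 27, against 9.4% and 36.2%. Among the higher was the centromere histone Cenpa, with 39 UMIs in 21 cells (9.13 times, 6.25 to 13.1). Ccnd1, a G1 cyclin, was at 3.23 times (2.81 to 3.70), within a list of which 2 of 14 genes were higher and 2 lower. The inhibitors Cdkn1a and Cdkn1c were at 0.215 and 0.0918 times. Of 11 inhibitors, 0 were higher and 5 lower. These values include all cells, for which 9.32% and 36.4% of features were higher and lower. In astrocytes, all cells included, Orc6 was at 2.96 times (2.05 to 4.15), Dut at 2.43, Hjurp at 1.90, the tumour suppressor Rb1 at 3.08 (2.58 to 3.66) and the growth-arrest gene Gas1 at 7.22 (5.05 to 10.06), while Cdk6 was at 0.0872 and Btg2 at 0.0711. The mitosis-rich astrocyte held 61 UMIs of the other replication genes and 47 of the other mitosis genes. Its part in these ratios was not tested. With it, 11 of 24 other replication genes were higher and 5 lower, and 10 of 30 other mitosis genes were higher and 5 lower. The shares over all features were 23.6% and 31.2%. Without the mitosis-rich cells, 7 of 23 and 4 of 27 were higher and 9 and 15 lower, against 23.1% and 32.4%. In ependymal cells the mitosis list was led by Nuf2, a kinetochore gene, with 540 UMIs in 285 cells against 23 UMIs in the other classes, 189.96 times (125 to 302), within a list of which 7 of 27 measured genes were higher and 8 lower, against 28.3% and 22.6% of all features. Of 8 measured cycle-related genes of multiciliated cells, 5 were higher there and 0 lower, against the same shares of all features, led by Myb (378 times, 224 to 695), a factor of early multiciliated differentiation, and Foxj1 (79.9 times, 69.5 to 92.2), a motile cilium factor. In endothelial cells the inhibitors Cdkn2b (9.07 times, 7.53 to 10.97) and Cdkn1a (6.37 times, 6.14 to 6.60) were higher. Of 11 inhibitors, 3 were higher there and 2 lower, against 15.5% and 33.3% of all features. In choroid plexus cells Cdkn1c was higher (19.4 times, 18.2 to 20.8), while Btg2 was at 0.0185 and Cdkn1a at 0.0472 times. There 1 of 11 inhibitors was higher and 5 lower, against 12% and 54.8% of all features. The ependymal, endothelial and choroid plexus values leave out the mitosis-rich cells, and those genes were chosen after the values were seen.

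A further set of cells was defined by at least 3 UMIs over both lists of other cycle genes. It held 1083 of the 2545 microglia. Pttg1, Atad2 and Smc4, 3 genes found in many cells, made up 28.2%, 6.11% and 5.99% of the UMIs of these lists. In those microglia the G2 and M members were at 90.2 CPM (84.0 to 96.7) against 24.2 (21.02 to 27.7) in the rest, 3.73 times higher (3.19 to 4.36), and the S phase members at 1.09 times (1.02 to 1.16). The 7 mitosis-rich microglia were among the 1083 cells and held 522 of their 793 G2 and M UMIs. Without these 7 cells the G2 and M ratio was 1.29 (1.07 to 1.55), at 31.2 CPM (27.6 to 35.1) against 24.2, and the S phase ratio 1.02 (0.958 to 1.09). Median depth was 7665 UMIs against 5630.5.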

How the data were processed

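The deposited matrix holds UMI counts per gene and barcode from 1 Chromium 3′ v3.1 library, which per the labels targeted 6000 cells. Per the submitters' processing notes, the authors used Cell Ranger 8.0.1 and GRCm39. The annotation, and whether intronic reads were counted, are not given in the sources used here. No chromatin sample was analysed here.

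The filters removed 187 barcodes, 164 of them for fewer than 500 genes and 97 for a mitochondrial share above 15%, some for both. A cell took the class whose markers were most completely detected, given at least 3 markers and a lead of at least 20 percentage points. This rule was set after the data were seen, and 280 cells lay 10 to 20 points and 270 lay 20 to 30 points ahead of the next class. Of 133 marker symbols, 3 had no match (Fcrls, Pifo and Trbc1). Own markers were detected at medians of 7 or 8 in the 7 main classes. Scrublet, at an expected rate of 5%, marked 261 cells (4.02%), which were kept and removed in an alternative.

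UMIs were summed per class and divided by the class total (CPM). Intervals are exact at 95%: Poisson for levels, Clopper-Pearson for shares, conditional binomial for ratios. The limit given for a count of 0 is 3 counts of the total, slightly below the exact upper bound. A gene that reached 10 UMIs in the compared groups combined was called higher or lower at a ratio of 2 or 0.5, and the same rule over all features gave the background percentages. Cells were thinned to 2000 UMIs for shares, which left out 553. Named genes were Mki67, Top2a, Cdk1, Pcna and Mcm2, the highest 5 and lowest 3 members of the leading class of each phase, and 3 genes of each other list; other members are named where a result turned on them. The members and lists were chosen with earlier results of these data known. Calculations used Python 3.11.15 with numpy 2.4.6, scipy 1.17.1, pandas 2.3.3, scanpy 1.11.5 and igraph 0.11.9, and the counting steps were tested on simulated data. Alternatives changed the cell filter, doublets, gate, weighting, fold, UMI minimum, thinning depth and choice of cells.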

Additional observations from a re-analysis of the deposited data

How the results depend on the processing

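Of 264 values recomputed over 38 results and 19 settings, 223 moved by less than the counting interval, or by less than 1.5 times for counts of genes or cells, and 41 by more. The astrocyte G2 and M level, 146 CPM, was 22.3 CPM without the mitosis-rich cells and 58.98 with cells weighed equally, and its ratio to S phase was 0.148 both without those cells and without the cell with the most member UMIs. Co-detection of both phases, 3.15% of thinned cells, was 2.70% without Scrublet calls, 0.757% at 1000 UMIs, 8.53% at 4000 UMIs and 0.219% with at least 2 UMIs of a phase. At a fold of 4 rather than 2, members higher with all cells numbered 1 instead of 3 of 36 in endothelial and 6 instead of 10 in ependymal cells, and without the mitosis-rich cells 2 instead of 4 and 8 instead of 10 of 34. The microglia ratio for G2 and M members, 3.73 for cells with at least 3 UMIs of other cycle genes, was 2.85 at 2 UMIs, 7.53 at 5 UMIs 183.6 for at least 10 distinct other mitosis genes, and 1.29 without the mitosis-rich cells. Mitosis-rich cells numbered 27 at 6 distinct genes, 16 at 8, 12 at 15 and 11 without Scrublet calls. With a looser gate, a lead of 10 points, the endothelial G2 and M level was 59.2 CPM instead of 48.6, and with classes from clusters the oligodendrocyte S phase level was 307 CPM instead of 213. Under the looser gate the mitosis-rich cell marked by Scrublet, with 69 G2 and M UMIs, is endothelial. Its part in that shift was not tested. The looser gate, the rule for mitosis-rich cells and all settings without those cells were added after the data were seen. The cause of these shifts was not tested beyond what each setting changes by construction.

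No paired analysis was possible because there is 1 library and no replicate. For the same reason no value has an error beyond counting, and classes of few cells, such as astrocytes and oligodendrocytes, cannot show members at a few CPM.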
